A study of Mus musculus with 9 samples.

Results

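The genes examined here encode the nuclear subunits of the mitochondrial respiratory chain and of ATP synthase, together with a few factors that assemble them. Members were probe sets with exactly 1 gene symbol in the platform annotation, where that symbol began with Nduf, Uqcr, Atp5 or Cox followed by a digit, or was Sdha, Sdhb, Sdhc, Sdhd, Cyc1 or Cycs. The rule used symbols only, and no measured difference between treatments entered it. It found 107 probe sets for 78 genes, out of 8251 genes with such a probe set on the array. Where a gene had several, the one with the highest mean over the 9 arrays stood for it. Complex I contributed 31 genes, complex II 4, complex III 8, complex IV 20 and complex V, the ATP synthase, 14, and Cycs encodes the mobile carrier cytochrome c. Another 11 probe sets that listed such a gene beside a second symbol, among them those of Ndufs5, Ndufs6 and Cox7c, were not used as members.

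Forebrain RNA from male C57BL mice, an inbred strain, was hybridised to Affymetrix U74Av2 arrays in 3 groups of 3 arrays. One group had received clozapine, an atypical antipsychotic, at 12 mg/kg/day. Another had received haloperidol, a typical antipsychotic that blocks dopamine D2 receptors, at 1.6 mg/kg/day, and the control group was untreated. Both drugs were given in the drinking water for 4 weeks to mice housed singly, whose age the labels give as 4 weeks. No animal carried a transgene or deletion according to the labels. The design chose 9 of 30 animals and put RNA of a single animal on each array without pooling, so a group of 3 arrays stands for 3 animals. The labels disagree on whether the right or the left hemisphere was used. The study asked how long treatment with each drug alters brain transcripts. Since the doses differ and both drug groups were compared with the same 3 controls, values for the drugs are given side by side.

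In oxidative phosphorylation, complex I takes electrons from NADH and complex II from succinate, and both pass them to ubiquinone. Complex III moves them on to cytochrome c, and complex IV, cytochrome c oxidase, gives them to oxygen. Complexes I, III and IV pump protons out of the matrix, and complex V uses their return to make ATP. Neurons depend heavily on this pathway because ion pumping and transmitter release consume ATP. Most subunits are encoded in the nucleus and are made in the cytosol, while the catalytic core of complex IV and several membrane subunits of complexes I, III and V come from mitochondrial DNA. Of the nuclear subunits, a small set of core proteins carries the redox centres, and the accessory subunits surround them. Some antipsychotics have been reported to inhibit complex I activity in tissue preparations, which is a measurement of the enzyme and not of its transcripts.

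The values are log2 probe set values that the authors made with GCRMA, a method that corrects background from probe sequence and normalises arrays together. A difference of 1 is a doubling of signal. Probe sets were tested if their 9-array mean lay above the 40th percentile of the table, a log2 value of 3.448, and 7453 passed. Of the 78 members, 68 passed and 10 did not. Just above the limit lay Atp5j2 at 3.46, Cox18 at 3.46 and Cox20 at 3.61, and just below it Atp5k at 2.90, Cox8b at 2.67 and Cox8a at 2.65. The 4 neuron markers on the array, Snap25, Syt1, Stmn2 and Nefl, all passed the filter, as did 5 of 5 astrocyte markers and 4 of 5 oligodendrocyte markers. The array of haloperidol 3 stood apart in pituitary genes: Prl was 11.8 there and 3.38 to 3.84 on the other 8 arrays, and Gh was 12.6 there and at most 1.28 elsewhere. Fewer cells of a type and less RNA per cell cannot be told apart in such tissue samples. The smallest two-sided p that an exact permutation test of 3 arrays against 3 can give is 0.1, so the tests below come from limma's model over all probe sets.

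Nuclear genes of these complexes are known to share binding sites for a few transcription factors near their start sites, above all nuclear respiratory factor 1 (NRF1), ETS-family factors such as GABP, and YY1. RefSeq promoter windows of 300 bases on mouse build GRCm38.p6, from 250 bases before to 50 after the start, were found for 62 of the 78 members. The NRF1 motif, whose letters are the capitals in the Ndufa5 stretch below with any base in its variable place, occurred on either strand in 11 of the 62 windows, 17.7%, beside 4.78% of 27025 windows of all genes and 6.60% of 17492 of protein-coding genes. The ETS motif CCGGAAG occurred in 18 windows, 29.0%, beside 9.12% and 11.9%. A YY1 motif occurred in 2 windows, 3.23%, beside 1.07% and 1.49%. No match of one motif overlapped a match of another. By complex, the NRF1 motif was in 4 of 28 windows of complex I, 2 of 3 of complex II, 1 of 4 of complex III, 1 of 14 of complex IV and 3 of 12 of complex V. The ETS motif was in 4, 2, 2, 6 and 4 of the same windows. A match describes letters in the window and does not show binding.

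The upstream stretches of 5 members from complexes I, II, IV and V are shown because they hold NRF1 motifs and belong to genes described below. Each is written in the direction of the gene, with the motif matches in capitals, and the NRF1 match nearest the left end begins at the stated base relative to the start site. Ndufa5 lies on the minus strand at chr6:24527687-24527736 and its match begins at -190. Sdha, at chr13:74350241-74350358 on the minus strand, has 3 NRF1 matches, the first at -98. Sdhd, at chr9:50603869-50603948 on the minus strand, has an NRF1 match at -79 and an ETS match in reverse orientation. Cox6a1, at chr5:115348959-115349140 on the minus strand, has 2 NRF1 matches, the first at -162, and an ETS match in reverse orientation. Atp5g2, at chr15:102671060-102671109 on the minus strand, has its match at -42.
Ndufa5: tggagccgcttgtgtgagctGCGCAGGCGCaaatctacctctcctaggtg
Sdha: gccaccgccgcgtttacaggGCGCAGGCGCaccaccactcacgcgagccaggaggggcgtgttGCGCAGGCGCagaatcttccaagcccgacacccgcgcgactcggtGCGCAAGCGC
Sdhd: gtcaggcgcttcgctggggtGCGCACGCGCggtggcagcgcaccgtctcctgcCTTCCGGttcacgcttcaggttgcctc
Cox6a1: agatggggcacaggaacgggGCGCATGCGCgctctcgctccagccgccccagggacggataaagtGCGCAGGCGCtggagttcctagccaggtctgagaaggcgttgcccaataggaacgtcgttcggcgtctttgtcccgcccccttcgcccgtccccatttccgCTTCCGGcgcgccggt
Atp5g2: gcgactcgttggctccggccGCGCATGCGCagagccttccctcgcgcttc

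No subunit or assembly gene differed between treatments after adjustment over all probe sets. In limma's test with Benjamini-Hochberg adjustment, 0 of the 68 members passed 0.05 in any of the 3 contrasts or in the F test over the 3 groups, and neither did any other probe set (0% of 7453 in each). At an unadjusted p under 0.05, 0 members were past the threshold for clozapine against control, where 0.939% of all probe sets were (0.443% above control and 0.496% below). For haloperidol against control there were 6 of 68, beside 9.12% of all probe sets, and for clozapine against haloperidol 3 of 68, beside 3.64%. In the latter Ndufa1 and Cox7a1 were higher under clozapine, beside 2.98% of all probe sets, and Atp5c1 lower, beside 0.657%. In the F test there were 2, Atp5c1 and Ndufa1, beside 3.37%. These shares are close to or below those of all probe sets, so they are no result about the members. Of the 6 for haloperidol, 2 lay above control (Atp5c1 and Ndufs1, beside 2.05% of all probe sets) and 4 below (Ndufa1, Cox5a, Cox7a1 and Ndufb7, beside 7.07%). Without haloperidol 1, 1 member was past the threshold for clozapine. The count of 6 fell to 0 without control 2, to 2 without haloperidol 2, and to 3 without haloperidol 3 or clozapine 1. The count of 3 between the drugs was 0 without clozapine 2 or haloperidol 3, and 1 without clozapine 3.

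The size of the differences was small throughout. Over the 68 members, the median difference between clozapine and control was -0.04 log2 units, with 23 of 68 above control, while over all probe sets tested it was -0.0013 with 49.5% above and 50.5% below. For haloperidol against control the median was 0.01 with 36 of 68 above, beside -0.02, 46.4% above and 53.6% below for all. Between clozapine and haloperidol it was -0.06 with 26 of 68 higher under clozapine, beside 0.03, 56.4% higher and 43.6% lower for all. The count above control for clozapine was 35 without control 1 and 36 without clozapine 2, and the median was then 0.01 and 0.0071. Without haloperidol 3 the median for haloperidol was -0.05, with 27 above, and between the drugs it was 0.03, with 40 higher under clozapine. Without control 2 or control 3 the haloperidol median was -0.0074 or -0.02, and without clozapine 2 the median between the drugs was 0.03, with 36 higher under clozapine. Centring each array on its median gave 18 of 68 above control for clozapine and 27 of 68 for haloperidol, with medians of -0.07 and -0.04. After that centring the members past an unadjusted p of 0.05 for haloperidol were 0 above and 4 below. The 95% confidence interval of the difference lay within 0.5 log2 units of 0 for 44 members under clozapine, 39 under haloperidol and 36 between the drugs, and within 1 unit for 65 in each comparison. A difference of more than 0.5 was seen in 1 member, Uqcrc2 under haloperidol.

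**Figure D1:**
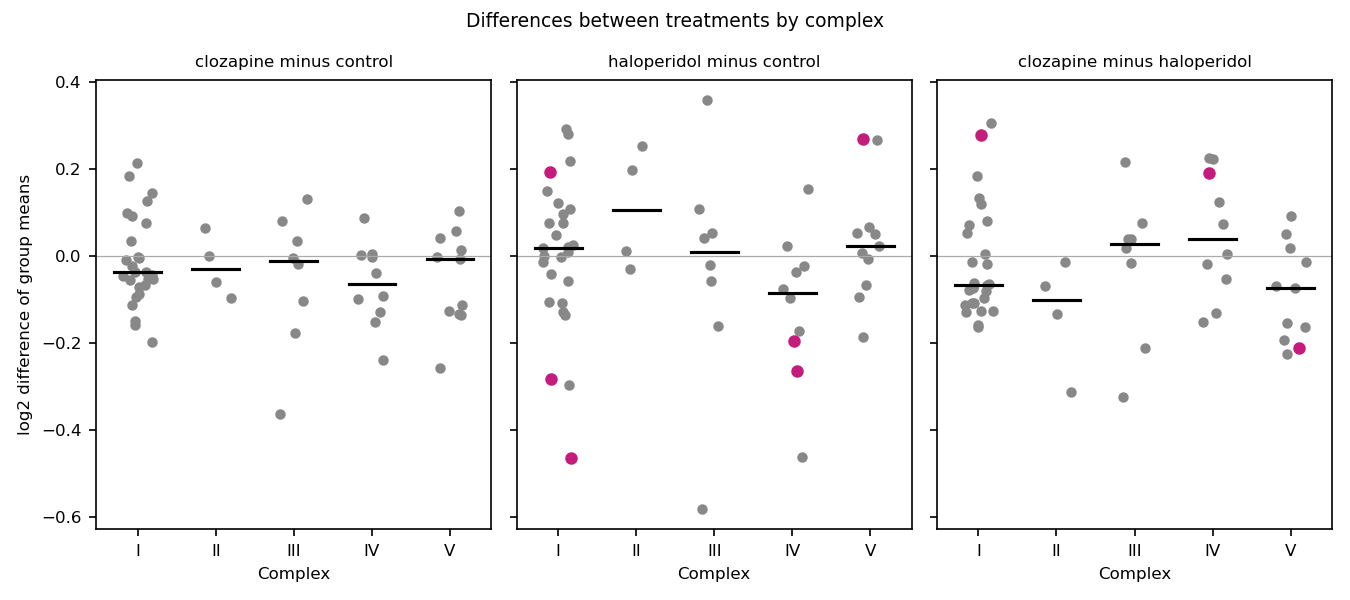
Differences between group means (log2 units, vertical axis) for the structural subunits of complexes I to V, 1 point per gene, in a panel for each drug against control and 1 for clozapine against haloperidol. Black bars are medians and magenta points have an unadjusted limma p under 0.05; the points scatter on both sides of 0 in all complexes except complex II between the drugs, and none passed the adjusted test.

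Complex I, the NADH dehydrogenase, had 29 structural genes of which 27 passed the filter, 4 for core subunits and 23 for accessory ones. Its median difference was -0.04 under clozapine, with 8 of 27 above control, and 0.02 under haloperidol, with 15 of 27 above. Between the drugs it was -0.07, with 9 of 27 higher under clozapine, and it became 0.07 without haloperidol 3. The haloperidol median was -0.05 without haloperidol 3, -0.0070 without control 3 and -0.0029 without control 2, and the clozapine median was 0.02 without control 1. The core genes lay above control for 3 of 4 under each drug, by a median of 0.09 under clozapine and 0.10 under haloperidol. The accessory genes lay above control for 5 of 23 under clozapine and 12 of 23 under haloperidol.

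Ndufs3 encodes a core subunit of the arm that carries electrons, and it had the lowest p of any member for clozapine. In the order of replicates 1 to 3, which is kept for all values below, it measured 10.05, 10.08 and 10.06 in control, 10.40, 10.21 and 10.23 under clozapine and 10.07, 10.54 and 10.46 under haloperidol. All 3 clozapine arrays lay above all 3 controls, whereas haloperidol 1 lay among the controls. The difference was 0.22 with a standard error (SE) of 0.13 for clozapine (limma, unadjusted p = 0.132, adjusted p = 1) and 0.29 for haloperidol (limma, unadjusted p = 0.0519, adjusted p = 0.53). Ndufs3 was the only member wholly above control under clozapine, beside 1.27% of all probe sets, and Cox6a1 the only one wholly below, beside 2.16%.

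Ndufs1, the largest core subunit and a carrier of iron-sulphur clusters, measured 9.11, 9.16 and 9.13 in control and 9.32, 9.39 and 9.26 under haloperidol. Under clozapine it measured 9.19, 9.23 and 9.08. The haloperidol arrays lay above all arrays of the other groups, and the clozapine arrays overlapped the controls. The means were 9.13 ± 0.02 (SD, n = 3) in control and 9.33 ± 0.06 (SD, n = 3) under haloperidol, a difference of 0.19 with an SE of 0.08, or 1.14-fold (limma, unadjusted p = 0.037, adjusted p = 0.53). The flavoprotein genes of the NADH-binding module, Ndufv1 and Ndufv2, differed from control by 0.15 and -0.07 under clozapine and by 0.01 and -0.00042 under haloperidol.

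Ndufa1, a small accessory subunit of the membrane arm, measured 4.00, 4.05 and 4.00 in control, 3.97, 4.10 and 3.97 under clozapine and 3.91, 3.59 and 3.70 under haloperidol. All 3 haloperidol arrays lay below the other 6, and the clozapine and control arrays overlapped. Its difference was -0.28 with an SE of 0.10 for haloperidol against control (limma, unadjusted p = 0.0198, adjusted p = 0.53), or 0.822-fold, and 0.28 for clozapine against haloperidol (limma, unadjusted p = 0.0205, adjusted p = 0.915). After quantile normalization the difference from control was -0.17.

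Ndufb7, an accessory subunit at the intermembrane face, measured 8.84, 8.63 and 8.58 in control, 8.64, 8.40 and 8.54 under clozapine and 8.51, 7.77 and 8.38 under haloperidol. The haloperidol arrays lay below the controls, and haloperidol 2 was the lowest of the 9. The difference from control was -0.46 (95% confidence interval -0.90 to -0.03; limma, unadjusted p = 0.04, adjusted p = 0.53).

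Ndufb2, another accessory subunit, was among the 4 members with the lowest p for clozapine. It measured 9.94, 10.11 and 10.09 in control and 10.19, 10.02 and 10.31 under clozapine, and 10.26, 9.92 and 10.10 under haloperidol, so the groups overlapped. Its difference from control under clozapine was 0.13, while a second probe set of the gene that passed the filter gave -0.27. That probe set ran from 2.91 in clozapine 2 to 6.90 in control 1, and from 3.34 to 6.90 within control, so its difference says little. The accessory gene with the brightest probe set, Ndufb5, had group means of 11.40 ± 0.11 in control, 11.31 ± 0.11 under clozapine and 11.39 ± 0.11 under haloperidol (SD, n = 3). Ndufa5, whose promoter stretch is shown above, ranged from 10.56 in clozapine 1 to 11.24 in haloperidol 1 and differed from control by -0.15 and -0.04 under clozapine and haloperidol. The difference from control of the other accessory genes, with Ndufb5 and Ndufa5, ran from -0.20 for Ndufa2 to 0.18 for Ndufb8 under clozapine and from -0.30 for Ndufa3 to 0.28 for Ndufb8 under haloperidol.

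All 4 genes of complex II, succinate dehydrogenase, passed the filter. Their median difference was -0.03 under clozapine, with 2 of 4 above control, and 0.11 under haloperidol, with 3 of 4 above. The haloperidol median was -0.06 without haloperidol 3 and -0.0065 without control 3, and the clozapine median was 0.07 without control 1. All 4 were lower under clozapine than under haloperidol, with a median difference of -0.10, which was 0.05 without haloperidol 3. The spread within groups was wide. Differences between group means made up a median of 6.21% of a gene's variance over the 9 arrays, beside 18.4% over all probe sets. Means of 3 arrays differ through scatter alone, so such a share is not the size of a treatment effect.

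Sdha, the flavoprotein that oxidises succinate, measured 9.33, 8.95 and 9.09 in control, 9.30, 8.99 and 9.08 under clozapine and 9.28, 8.78 and 9.34 under haloperidol. Its group means were 9.12, 9.12 and 9.14, and the groups overlapped, with the widest spread under haloperidol (SD 0.31, beside 0.19 in control and 0.16 under clozapine, n = 3). Sdhb, the iron-sulphur subunit, measured 10.59, 10.13 and 9.74 in control, 10.50, 9.99 and 10.17 under clozapine and 9.95, 10.32 and 10.79 under haloperidol. The controls alone were spread more widely than the difference of 0.20 between the haloperidol and control means, and the groups overlapped.

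Sdhc and Sdhd anchor the enzyme in the inner membrane and hold its haem. Sdhc measured 8.90, 8.75 and 8.41 in control, 8.78, 8.57 and 8.42 under clozapine and 8.61, 8.53 and 8.84 under haloperidol, with full overlap. Sdhd measured 8.56, 8.14 and 8.46 in control, 8.50, 8.30 and 8.17 under clozapine and 8.54, 8.75 and 8.63 under haloperidol. The clozapine arrays of Sdhd lay below all haloperidol arrays, by means of 8.33 ± 0.17 and 8.64 ± 0.10 (SD, n = 3), while the controls overlapped both. The difference between the drugs was -0.31 with an SE of 0.14, or 0.805-fold (limma, unadjusted p = 0.0507, adjusted p = 0.915).

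Complex III, the cytochrome bc1 complex, had 8 genes, all past the filter. Its median difference was -0.01 under clozapine with 3 of 8 above control, 0.01 under haloperidol with 4 of 8 above, and 0.03 between the drugs with 5 of 8 higher under clozapine. The haloperidol median was -0.23 without control 3, -0.14 without haloperidol 3 and 0.16 without control 1, and the clozapine median was 0.11 without control 1 and 0.12 without clozapine 2. Between the drugs the median was -0.11 without clozapine 1, with 1 of 8 higher under clozapine, -0.06 without haloperidol 1, -0.03 without haloperidol 2 and 0.12 without haloperidol 3. These genes varied most within groups: their median residual standard deviation was 0.333 log2 units, beside 0.196 over all probe sets tested. Differences between group means made up a median of 3.68% of the variance.

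Cyc1 encodes cytochrome c1, the subunit that hands electrons to cytochrome c, and has the brightest probe set of the complex. It measured 11.08, 11.02 and 10.70 in control, 11.18, 11.04 and 10.82 under clozapine and 10.74, 11.05 and 11.13 under haloperidol, and the groups overlapped. Uqcrc2, a structural core protein, measured 10.46, 11.17 and 11.80 in control, 10.03, 11.05 and 11.25 under clozapine and 10.82, 10.75 and 10.12 under haloperidol. Its values spanned 1.77 log2 units and overlapped, and its difference of -0.58 for haloperidol had a 95% confidence interval from -1.55 to 0.38 (limma, unadjusted p = 0.203, adjusted p = 0.688). Uqcr11, a small accessory subunit, measured 8.59, 7.95 and 7.19 in control, 8.23, 7.16 and 8.03 under clozapine and 7.74, 7.76 and 8.55 under haloperidol, a range of 1.43. Its controls alone covered nearly all of that range. Uqcrb, a subunit near the ubiquinone site, differed from control by 0.03 under clozapine and 0.36 under haloperidol, with overlapping groups.

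Cycs, the somatic cytochrome c that shuttles electrons between complexes III and IV and also takes part in apoptosis, measured 9.22, 8.88 and 9.23 in control, 9.21, 9.17 and 9.22 under clozapine and 9.30, 9.22 and 9.27 under haloperidol. The low value was control 2, and the other 8 arrays lay within 9.17 to 9.30. The haloperidol arrays lay above the clozapine arrays, by means of 9.26 ± 0.04 and 9.20 ± 0.03 (SD, n = 3), and clozapine minus haloperidol was -0.06 (limma, unadjusted p = 0.559, adjusted p = 1).

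Complex IV had 14 structural genes, and 10 passed the filter. Under haloperidol 8 of 10 lay below control, with a median difference of -0.09, and under clozapine 7 of 10, with a median of -0.06. Between the drugs the median was 0.04 with 6 of 10 higher under clozapine. Leaving out any 1 array kept the haloperidol median between -0.15 and -0.04, and leaving out haloperidol 3 gave -0.10. Differences between group means made up a median of 38.4% of the variance in these 10 genes, beside 18.4% over all probe sets. As said for complex II, scatter alone gives such shares, so they are not sizes of a treatment effect. Their median residual standard deviation was 0.124, beside 0.196. In limma's F test over the 3 groups, 0 of the 10 had an unadjusted p under 0.05. No test of complex IV against the other complexes was made, and 19.4% of all probe sets lay wholly below control under haloperidol, where complex IV had 2 of 10. Those 2, Cox5a and Cox7a1, lie in the lowest quartile of signal, where 1082 of 1864 probe sets lay wholly below control.

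Cox5a, a subunit of the matrix side, measured 3.74, 3.88 and 3.79 in control, 3.68, 3.92 and 3.71 under clozapine and 3.58, 3.66 and 3.39 under haloperidol. The haloperidol arrays lay below the other 6. The difference from control was -0.26 with an SE of 0.10 (limma, unadjusted p = 0.0359, adjusted p = 0.53), and -0.15 after quantile normalization. Cox5b, its neighbour in the complex, ranged from 10.92 in clozapine 2 to 11.50 in clozapine 1 and differed from control by -0.09 and -0.10 under clozapine and haloperidol.

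Several complex IV subunits exist as versions encoded by different genes, one general and one enriched in heart and skeletal muscle. Cox6a1, the general version of subunit VIa, measured 12.63, 12.49 and 12.58 in control, 12.45, 12.43 and 12.37 under clozapine and 12.50, 12.72 and 12.42 under haloperidol. Its clozapine arrays lay below the controls, a difference of -0.15 with an SE of 0.10 (limma, unadjusted p = 0.154, adjusted p = 1), and the haloperidol arrays overlapped both groups. Cox6a2, the muscle version, measured 4.64, 4.62 and 4.65 in control, 4.62, 4.73 and 4.81 under clozapine and 4.59, 4.58 and 4.62 under haloperidol. The highest value was clozapine 3, and the difference of 0.09 for clozapine had an unadjusted limma p of 0.287.

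Cox7a1, the muscle version of subunit VIIa, measured 3.80, 3.86 and 3.83 in control, 3.77, 3.95 and 3.77 under clozapine and 3.66, 3.69 and 3.56 under haloperidol. The haloperidol arrays lay below the other 6, a difference of -0.19 from control (limma, unadjusted p = 0.0467, adjusted p = 0.53) and of 0.19 for clozapine over haloperidol (limma, unadjusted p = 0.0495, adjusted p = 0.915). Quantile normalization reduced the latter to 0.08. Cox7a2, the general version, measured 10.91, 10.62 and 10.996 in control, 10.97, 10.63 and 10.55 under clozapine and 10.80, 10.72 and 10.78 under haloperidol, with overlap throughout. Of 4 muscle markers on the array 3 passed the filter, and Ckm did not. Their differences for haloperidol were -0.09 for Acta1, -0.30 for Myh6 and -0.11 for Tnnt2, of which Myh6 had an unadjusted limma p of 0.0472. All 3 were also higher under clozapine than under haloperidol, by 0.05, 0.24 and 0.12, which is the direction of Cox7a1. It is also the direction of 81.2% of all probe sets in the lowest quartile of signal, to which Cox7a1 belongs. The summed muscle marker level ran from 5.69 to 5.76 in control, 5.65 to 5.75 under clozapine and 5.53 to 5.67 under haloperidol. Even the sum lies below 6.23, the upper limit of quartile 2 of signal, so the markers are of low signal too. The part of muscle markers or of low signal in the Cox7a1 values was not tested.

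Cox4i1, the general version of the regulatory subunit IV, measured 6.97, 6.96 and 7.20 in control, 6.96, 6.91 and 6.96 under clozapine and 6.98, 6.88 and 6.75 under haloperidol, with overlapping groups and a difference of -0.17 under haloperidol. Cox6b2, the testis-enriched version of subunit VIb, measured 7.86, 7.80 and 7.39 in control, 7.63, 7.22 and 7.49 under clozapine and 7.63, 6.83 and 7.22 under haloperidol. Its means were 7.69, 7.45 and 7.22, and the groups overlapped. The haloperidol difference was -0.46 (limma, unadjusted p = 0.0693, adjusted p = 0.542). These values come from a probe set with the suffix _r. The other Cox6b2 probe sets did not pass the filter, with 9-array means of 1.20 and 3.24. The level of Cox6b2 beside that of Cox6b1 is therefore not settled here. The general version Cox6b1 did not pass the filter and ranged from 1.88 to 2.10. Nor did the subunit VIII genes Cox8a (2.50 to 2.79), Cox8b (2.52 to 2.81) and Cox8c (2.07 to 2.33). Cox6c, the brightest complex IV probe set, had group means of 13.16 ± 0.04, 13.17 ± 0.17 and 13.19 ± 0.15 (SD, n = 3) in control, clozapine and haloperidol.

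Complex V had 14 genes, and 11 passed the filter, 4 for the catalytic F1 head and 7 for the stalk and the membrane part. The median difference was -0.0066 under clozapine with 4 of 11 above control and 0.02 under haloperidol with 7 of 11 above. The clozapine median was 0.02 without clozapine 2 and -0.07 without clozapine 1 or clozapine 3, and the haloperidol median ran from 0.0034 without control 2 to 0.09 without haloperidol 2. Between the drugs it was -0.07 with 3 of 11 higher under clozapine, and -0.23 without clozapine 1.

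Atp5c1 encodes the gamma subunit, the rotating shaft of the F1 head, and had the lowest p of all members for haloperidol. It measured 10.93, 10.73 and 10.91 in control, 10.95, 10.95 and 10.85 under clozapine and 11.11, 11.08 and 11.20 under haloperidol. Every haloperidol array lay above the other 6, and the clozapine arrays overlapped the controls. The means were 10.86 ± 0.11 in control, 10.92 ± 0.05 under clozapine and 11.13 ± 0.06 under haloperidol (SD, n = 3). Haloperidol exceeded control by 0.27 with an SE of 0.09, or 1.21-fold (limma, unadjusted p = 0.0139, adjusted p = 0.53), and clozapine minus haloperidol was -0.21 (limma, unadjusted p = 0.0394, adjusted p = 0.915). A second Atp5c1 probe set past the filter gave 0.34 for haloperidol, but there the groups overlapped. It measured 9.65, 9.27 and 9.79 in control, 9.81, 9.95 and 9.40 under clozapine and 9.54, 10.14 and 10.06 under haloperidol. Without haloperidol 3 the main probe set differed from control by 0.23, and without control 2 by 0.20.

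The other F1 genes varied less or varied within groups. Atp5a1, the alpha subunit, lay between 11.99 and 12.08 on all 9 arrays, and its haloperidol difference of 0.01 had a 95% confidence interval from -0.15 to 0.16. Atp5d, the delta subunit, differed from control by 0.10 under clozapine and 0.05 under haloperidol. Atp5e, the epsilon subunit, had the widest range of any member, 1.89 log2 units: it measured 7.83, 7.53 and 7.18 in control, 7.90, 6.14 and 7.73 under clozapine and 7.29, 6.67 and 8.02 under haloperidol. The low values of Atp5e were clozapine 2 and haloperidol 2, and the groups overlapped.

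Of the membrane part, Atp5g2 is one of the genes for the c subunit that forms the proton-driven ring. It measured 4.97, 5.39 and 6.08 in control, 5.27, 5.36 and 5.41 under clozapine and 5.52, 5.66 and 5.33 under haloperidol, and the controls spanned both drug groups. Atp5g1, another gene for the same protein, did not pass the filter and ranged from 1.64 to 1.82. Atp5md, a small subunit with the brightest probe set of the complex, had means of 12.13 ± 0.17, 12.14 ± 0.17 and 12.12 ± 0.33 (SD, n = 3). Atp5j, a coupling factor of the stalk, differed from control by 0.04 under clozapine and 0.27 under haloperidol (limma, unadjusted p = 0.112, adjusted p = 0.602), and Atp5o, the subunit that confers oligomycin sensitivity, by -0.13 and 0.07.

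The 7 genes for assembly factors and for the supercomplex factor Cox7a2l that passed the filter had a median of -0.05 under clozapine, with 2 of 7 above control, and of 0.08 under haloperidol, with 4 of 7 above. Ndufaf1 and Ndufaf4 help to build complex I and differed from control by 0.04 and -0.05 under clozapine and by 0.21 and 0.10 under haloperidol. Cox17 delivers copper to complex IV and differed by -0.05 and -0.09. Cox20, which stabilises a catalytic subunit of complex IV during assembly, measured 3.62, 3.75 and 3.68 in control, 3.60, 3.75 and 3.63 under clozapine and 3.54, 3.54 and 3.39 under haloperidol, so the haloperidol arrays lay below the others (limma, unadjusted p = 0.0517, adjusted p = 0.53). Cox7a2l measured 9.04, 8.96 and 9.10 in control, 9.28, 8.89 and 8.77 under clozapine and 9.05, 9.06 and 9.24 under haloperidol, with overlapping groups.

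**Figure D2:**
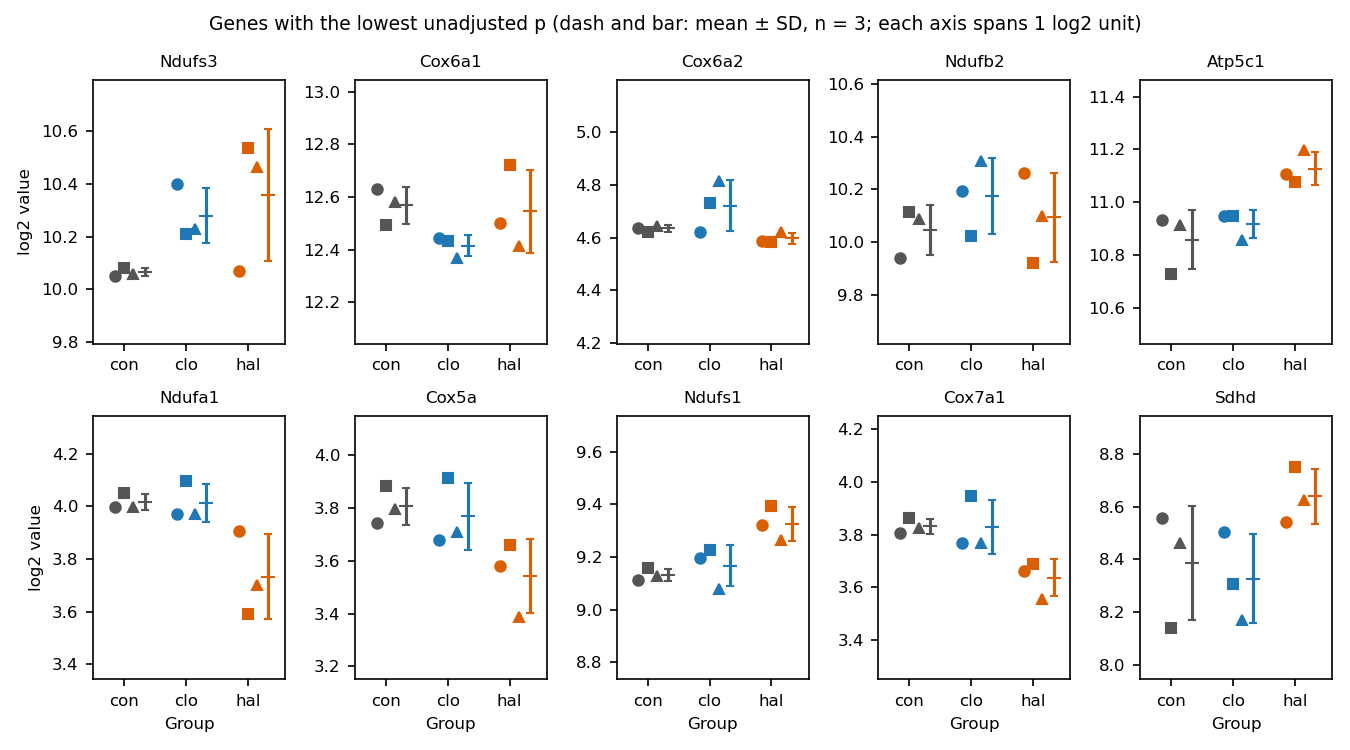
Log2 values (vertical axes, each spanning 1 log2 unit) of the 10 members with the lowest unadjusted p in a contrast, for control (con), clozapine (clo) and haloperidol (hal). Circles, squares and triangles are replicates 1, 2 and 3, and the dash and bar give the mean ± SD (n = 3); in Atp5c1 and Ndufs1 the 3 haloperidol points lie above the other 6, and in Ndufa1, Cox5a and Cox7a1 below them.

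In terms of arrays that do not overlap, 8 members separated haloperidol from control, beside 21.7% of all probe sets, 2 above (2.29% of all) and 6 below (19.4%). The members above were Ndufs1 and Atp5c1, and those below were Ndufa1, Ndufb7, Cox20, Cox5a, Cox7a1 and Atp5j2. Between the drugs 9 members separated, beside 17.1%: Ndufa1, Cox20, Cox5a, Cox7a1 and Atp5j2 lay higher under clozapine (15.2% of all probe sets did) and Ndufs1, Sdhd, Atp5c1 and Cycs lower (1.96%). For clozapine against control 2 separated, beside 3.43%.

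The members varied together from array to array more than between treatments: the group means of their average deviation were 0.01, -0.02 and 0.0088 in control, clozapine and haloperidol, with a pooled SD over arrays of 0.10. Averaged over the 68 members, the deviation from the 9-array mean was 0.12, -0.04 and -0.05 in control 1 to 3, 0.08, -0.13 and -0.0012 in clozapine 1 to 3, and -0.0031, -0.08 and 0.11 in haloperidol 1 to 3. Control 1, clozapine 1 and haloperidol 3 were thus the high array of their groups. All 3 were the highest of their group in 29 of 68 members, 42.6%, beside 19.4% of all probe sets tested. By complex this held for 12 of 27 genes of complex I, 3 of 4 of complex II, 6 of 8 of complex III, 6 of 11 of complex V and 1 of 10 of complex IV. In complex II the 3 arrays deviated by 0.23, 0.15 and 0.28. In complex IV the highest array was control 3, at 0.07, and the lowest haloperidol 3, at -0.11.

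Each gene was also set against the mean of the other 67 members over the 9 arrays, as a description of arrays that share their RNA, hybridisation and normalisation. The correlation had a median of 0.327, was over 0.5 in 28 members and below 0 in 21. It was highest for Uqcrh (0.937), a hinge protein of complex III, Ndufv3 (0.924), Ndufa6 (0.907), Cox5b (0.905) and Ndufv2 (0.903). It was below -0.5 in 8 members, Uqcrc2 (-0.733), Cox5a, Atp5g2, Cox20, Cox17, Cox7b, Atp5j2 and Cox7a1, of which 5 belong to complex IV or its assembly. Of these 8, Cox5a, Cox20, Atp5j2 and Cox7a1 lie in the lowest quartile of signal. In that quartile 19.0% of all tested probe sets lay above control under haloperidol. The part of low signal in these correlations was not tested.

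Other measures moved with these arrays. For Actb and Gapdh the array carries controls at either end of the transcript, and the excess of the 3' over the 5' signal, which widens as RNA degrades, averaged 0.882 in control 1, 0.892 in clozapine 1 and 0.814 in haloperidol 3, and 1.46 and 1.73 in control 2 and 3, 1.13 and 1.14 in clozapine 2 and 3, and 1.30 and 0.868 in haloperidol 1 and 2. The array with the smallest gap was the highest in each group for the members, although haloperidol 2, with a gap close to that of haloperidol 3, was low. The 4 neuron markers deviated by 0.28, -0.15 and -0.61 in control 1 to 3, 0.22, 0.14 and -0.27 in clozapine 1 to 3 and -0.15, 0.22 and 0.32 in haloperidol 1 to 3. Their summed level ran from 13.25 to 13.76 in control, 13.44 to 13.69 under clozapine and 13.65 to 13.78 under haloperidol. Haloperidol 3 also carried the pituitary signal described above, with 5 of 5 pituitary markers at their highest there, of which Prl alone passed the filter on its 9-array mean. The part of RNA quality, neuron content or pituitary tissue in the members' values was not tested.

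**Figure D3:**
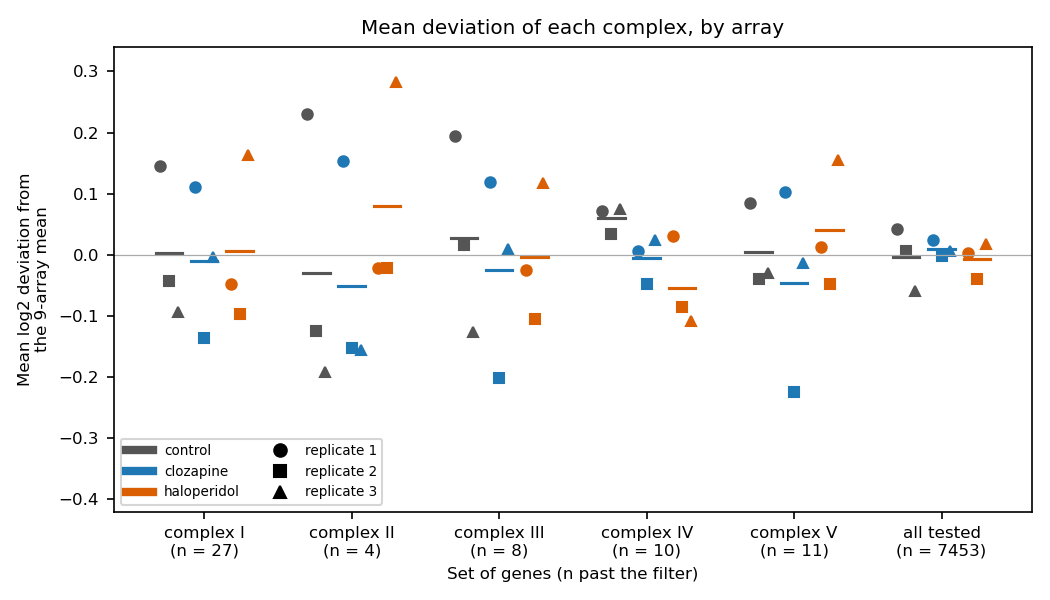
Mean deviation from the 9-array mean (log2 units, vertical axis) of the members of each complex and of all 7453 probe sets, 1 point per array; colours are groups, circles, squares and triangles are replicates 1, 2 and 3, and dashes are group means (n = 3). Control 1, clozapine 1 and haloperidol 3 lie highest in complexes I, II, III and V, with deviations of 0.23, 0.15 and 0.28 in complex II, whereas haloperidol 3 is the lowest array in complex IV at -0.11.

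**Figure D4:**
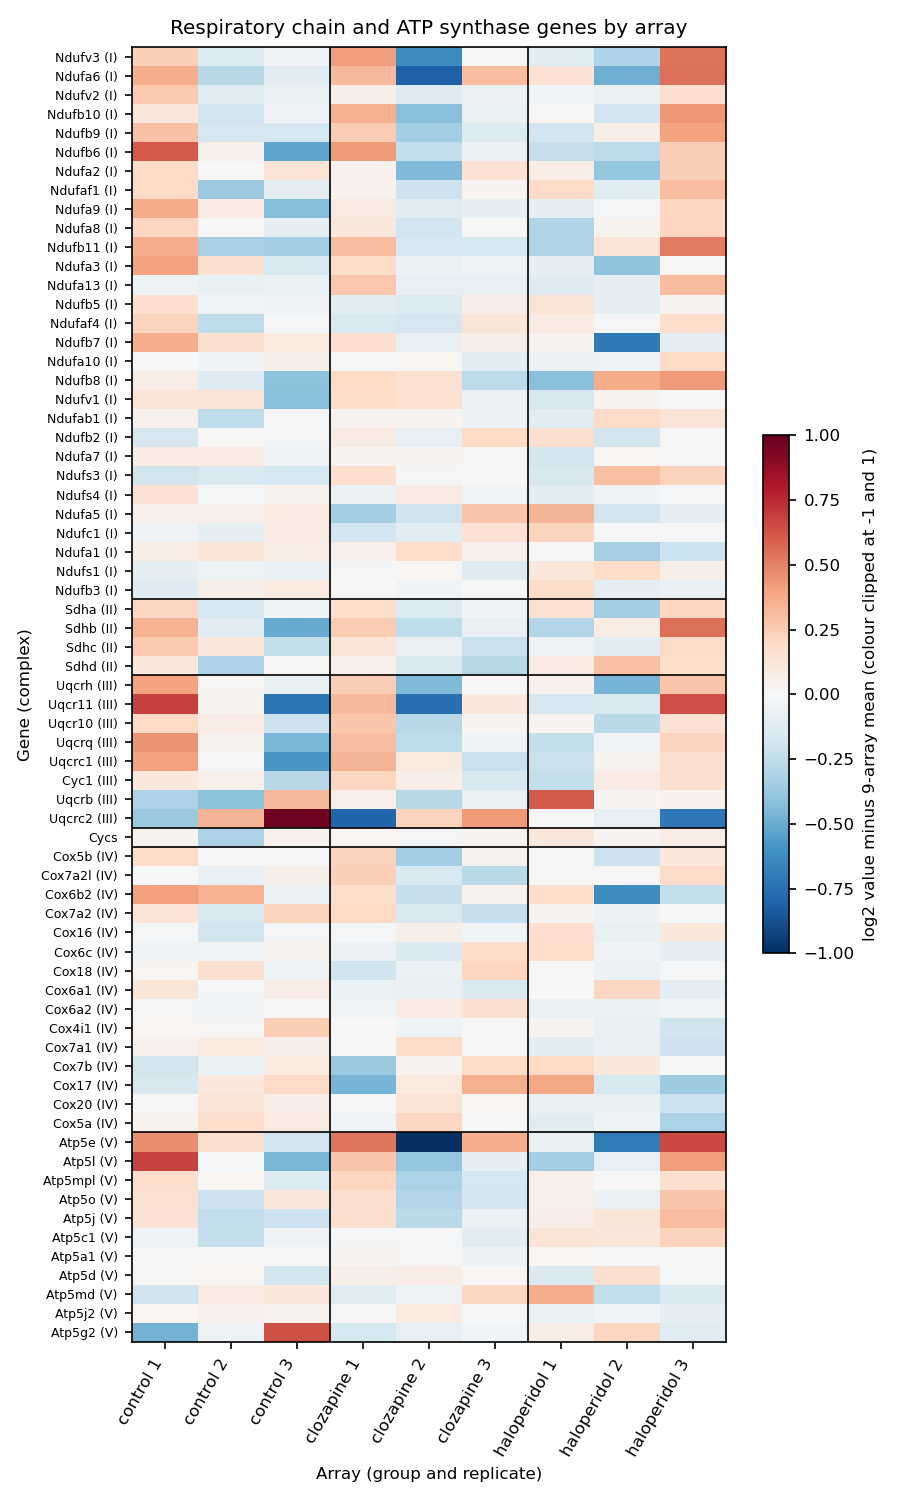
Log2 value minus the gene's 9-array mean for each of the 68 members past the filter (rows, grouped by complex) on the 9 arrays (columns), with colour clipped at -1 and 1. Red columns at control 1, clozapine 1 and haloperidol 3 run through complexes I, II, III and V, with exceptions such as Uqcrc2 and Atp5g2, and are not seen in most complex IV genes.

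The direction of the haloperidol differences went with signal level. The 6 members in the lowest quartile of tested probe sets, with means between 3.45 and 4.61 for that quartile, were Ndufa1, Cox18, Cox20, Cox5a, Cox7a1 and Atp5j2. All 6 lay below control under haloperidol, by a median of -0.19, and 3 of them made up most of the 4 members below control at an unadjusted p under 0.05. All tested probe sets of that quartile had a median of -0.13 with 19.0% above control, and 1082 of 1864 lay wholly below control. In the highest quartile, which held 49 members, the members' median was 0.02, beside 0.04 for all probe sets there. Of the 10 members below the filter, with means from 1.71 to 2.90, haloperidol 3 was the lowest array in 10 of 10, beside 89.8% of 4969 probe sets below the filter, and clozapine 2 the highest in 10 of 10, beside 86.0%. Their haloperidol difference had a median of -0.08, beside -0.09. In this range the same order of arrays recurs in most probe sets, so the values of these members are not read as expression.

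**Figure D5:**
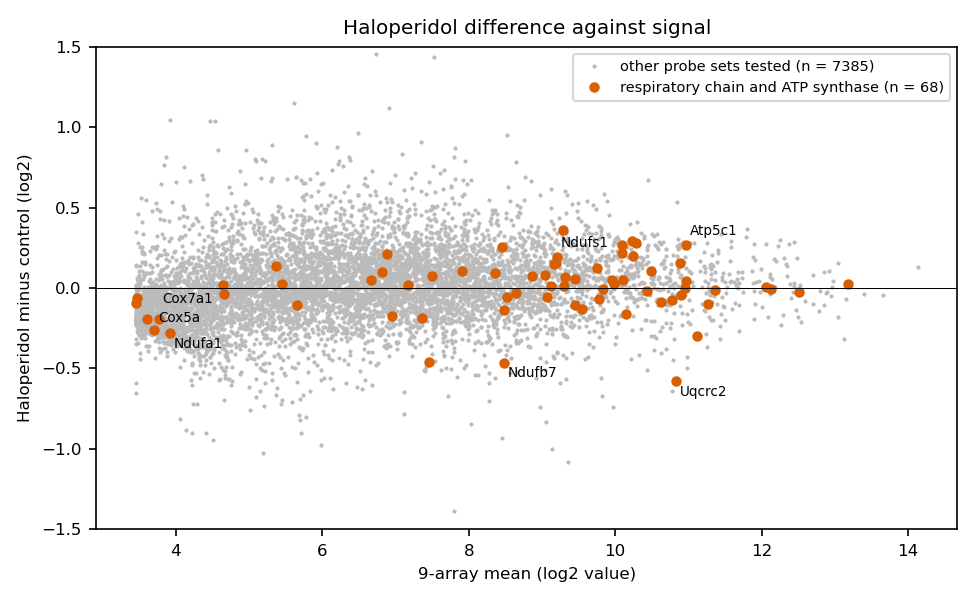
Haloperidol minus control (log2 units, vertical axis, drawn from -1.5 to 1.5, which leaves out 1 probe set) against the 9-array mean (log2 value, horizontal axis) for the 68 members in orange and the other 7385 probe sets in grey. Members near the filter limit, among them Ndufa1, Cox5a and Cox7a1, lie below 0 within a grey cloud that is also below 0 there.

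Second probe sets were present for 22 of the members, 29 in all. Those past the filter gave a difference of the same sign for haloperidol in Atp5c1 (0.34 beside 0.27), both others of Atp5d (0.11 and 0.05 beside 0.05), Ndufb2 (0.06 beside 0.05), Ndufa3 (-0.34 beside -0.30), Ndufb6 (-0.34 beside -0.13) and Atp5l (-0.14 beside -0.07). For Ndufaf1 the sign was opposite, -0.18 beside 0.21. The second probe set of Ndufb2 ranged from 2.91 to 6.90 over the 9 arrays, so its shared sign says little. The second probe sets of Ndufa3, Ndufb6 and Atp5l had means of 4.39, 4.03 and 3.48, in the lowest quartile of signal. There 19.0% of all tested probe sets lay above control under haloperidol, so a shared negative sign says little about these genes. An Atp5d probe set in the same range, with a mean of 3.80, lay above control. Some of the probe sets with the suffix _f, _r, _s, _g or _i can bind related transcripts. Among the members named above, those of Atp5c1, Ndufb2, Ndufb5, Ndufa3, Ndufa5, Sdhb, Uqcrb, Uqcrc2, Cox4i1, Cox6a1, Cox6b1, Cox6b2, Cox6c, Cox8c, Atp5d, Atp5e, Atp5g2 and Atp5md carry such a suffix. Leaving such probe sets out kept 53 members past the filter, with 0 called and 5 past an unadjusted p of 0.05 for haloperidol.

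The pathway around the chain was read from lists of genes that are not members, and 0 of their genes were called in limma's adjusted test. Genes past an unadjusted p of 0.05 are named beside the shares of all probe sets given above, which were 0.939% for clozapine and 9.12% for haloperidol. Leaving out single arrays turned the sign of the median or moved it by over 1.5 times in each of these lists, so the counts describe these 9 arrays. Of the 20 assembly factors and import genes past the filter, 12 lay above control under clozapine and 13 under haloperidol. At an unadjusted p under 0.05 there was 1 of 20 for haloperidol, Timm23 of the inner membrane import channel, at -0.23, a share below the 9.12% of all probe sets. Of the 11 genes for the ATP synthase inhibitor, carriers and energy transfer, 6 lay above control under each drug. Vdac3, a channel of the outer membrane, differed by 0.28 under clozapine and 0.34 under haloperidol, and Ckb, the brain creatine kinase, by -0.16 and -0.30. Past that p were 1 of 11 for clozapine, above control, and 2 of 11 for haloperidol, 1 above and 1 below. Ckb was thus not past it for clozapine. These shares are 9.09% and 18.2%, beside 0.939% and 9.12% of all probe sets. Upstream of the chain, 8 and 10 of 13 citric acid cycle genes lay above control under clozapine and haloperidol. Their medians were 0.03 and 0.09 (-0.06 and -0.02 without control 3). Idh3a, a subunit of isocitrate dehydrogenase, differed by -0.19 and -0.36. It was past an unadjusted p of 0.05 for haloperidol only, 1 of 13 or 7.69%, beside 9.12% of all probe sets. Of 6 pyruvate dehydrogenase genes 3 and 5 lay above control, and of 13 glycolytic genes 9 and 8.

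Of the 10 genes for ubiquinone synthesis and other electron donors, 7 lay above control under clozapine and 9 under haloperidol, with medians of 0.03 and 0.16. The haloperidol median was 0.05 without haloperidol 3, 0.10 without control 3 and between 0.11 and 0.20 without any other array of those groups, and the clozapine median was -0.0046 without control 2. Of 29 mitochondrial ribosomal protein genes, which serve the subunits made inside the organelle, 17 lay above control under each drug, with medians of 0.05 and 0.13. The haloperidol median was 0.02 without haloperidol 3, 0.01 without control 3 and 0.06 without control 2 or haloperidol 1, and the clozapine median was -0.03 without control 2. The ribosomal protein genes past an unadjusted p of 0.05 were Mrps15 (0.37) for clozapine and Mrps15 (0.50), Mrps22 (0.51) and Mrps31 (0.24) for haloperidol, Mrps31 being named after its values were seen. For haloperidol that is 3 of 29, or 10.3%, all above control. Of all probe sets, 2.05% were past that p above control and 9.12% in either direction. For clozapine it is 1 of 29, above control, beside 0.443% of all probe sets. No test of the list as a set was made. Of 10 genes for biogenesis regulators and mitochondrial DNA maintenance, 7 and 4 lay above control, and of 5 mitochondrial antioxidant genes 4 and 3. The deviation of the citric acid cycle genes was 0.08 in control 1, 0.07 in clozapine 1 and 0.09 in haloperidol 3, the same 3 arrays as for the members, and -0.21 in control 3.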

How the data were processed

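RNA of 9 mouse forebrains was measured on 9 Affymetrix arrays. Values were used on the log2 scale as deposited, which the authors had made with GCRMA, per the submitters' processing notes; its version is not given in the sources used here. Of 12488 probe sets, 66 controls were left out, and 10833 of the other 12422 carry 1 symbol in the platform annotation, which can be old. All 78 member symbols were found unchanged in the RefSeq table of GRCm38.p6. Groups and replicate numbers came from the titles.

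limma 3.58.1 in R 4.3.3 fitted 1 mean per group to all 9 arrays and 7453 probe sets (lmFit, eBayes, 6 residual and 2.03 prior degrees of freedom; two-sided; Benjamini-Hochberg over all probe sets; threshold 0.05). The median SE of a difference was 0.153 log2 units, and the number of arrays limits the precision. Lists are described by counts and medians. The script was tested on simulated data. Members and lists were chosen with earlier results of these data known. Genes given by array were the 4 with the lowest p in each contrast, the 3 with the widest range, the brightest of complexes I, III, IV and V, isoform families, Sdha to Sdhd, Cyc1 and Cycs; Ndufb7 and Cox20 were added after their values were seen.

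Same-numbered arrays' deviations correlated from -0.597 to 0.697, with 3 of 9 pairs over 0.1. For differently numbered arrays the range was -0.660 to 0.661, with 8 of 18 over 0.1, so the numbers were not taken to pair the animals. Deviations of the 3 arrays of a group depend on each other, which limits what these correlations can decide. Control 1, clozapine 1 and haloperidol 3 correlated with each other at 0.638 to 0.697, and the main model has no term for such sets. Alternatives covered the filter, a floor, centring, quantile normalization, the variance prior, array weights, a replicate block, the threshold, suffixed and second probe sets, the arrays compared and each array left out; 2 that left out several arrays, and the related lists without each array, were chosen after seeing the data.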

Additional observations from a re-analysis of the deposited data

Results flagged for a closer look

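Among 39 probe sets outside the main comparisons, the second probe set of Cyc1 was higher on 1 array than on any control array. It measured 2.73 in haloperidol 2 and at most 1.95 on the control arrays and on all others. Its mean lay below the filter, and the main Cyc1 probe set measured 11.05 on that array, within the range of the others.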

How the results depend on the processing

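No member was called under any of 23 alternatives per contrast or 22 for the F test; limma's lowest adjusted p was 0.0632, for haloperidol with array weights, a fit that did not converge fully, gave control 2 a weight of 13.6 and left 6, 18 and 2 members past an unadjusted p of 0.05 in the 3 contrasts and 14 in the F test. Without a filter 9 and 10 members were past it for haloperidol and between the drugs, and 6 in the F test. With the replicate block, 0 members were called and 0, 6 and 2 were past it, and it changed no call. The median of complex IV for clozapine became 0.00013 without a filter and -0.0102 with array weights. Without control 3 and haloperidol 3 together, the haloperidol medians of complexes I, II and III became -0.119, -0.168 and -0.276, and the median of complex I between the drugs 0.0707. The median of complex IV between the drugs became 0.0997 without a filter, -0.0187 with a filter set at the 60th percentile, and -0.017 without control 1, clozapine 1 and haloperidol 3. With the mean of all its probe sets Ndufb2 reversed to -0.043 for clozapine. Leaving out each array in turn, medians ranged from -0.229 to 0.156 for complex III and -0.154 to -0.0381 for complex IV under haloperidol, and between the drugs from -0.0797 to 0.0707 for complex I, -0.00827 to 0.105 for complex IV and -0.227 to -0.0214 for complex V. The cause was not tested. The other 435 recomputed summary values kept their count or moved by less than the pooled SD over arrays of the set. That margin is wider than most of the medians, so a median that changed sign could count as kept. For complex II under haloperidol the margin was 0.195, and the median of 0.11 became -0.06 without haloperidol 3. Of the named genes, 268 values kept their direction and side of the threshold. With 3 arrays per group, intervals of many members reach beyond 0.5 log2 units.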
